A study of Mus musculus with 3 samples.

Results

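Histone cluster genes were taken as the protein-coding genes of GENCODE M21 whose symbol starts with Hist1h, Hist2h, Hist3h or Hist4h, and 67 of the 21755 protein-coding genes on the chromosomes of the peak list met this rule. Hist1, on chromosome 13, held 54 of them, Hist2, on chromosome 3, held 10, Hist3, on chromosome 11, held 2 and Hist4, on chromosome 6, held 1. By histone type, 6 genes encode linker histone H1, 18 H2A, 18 H2B, 12 H3 and 13 H4. For each gene, accessible peaks of dopaminergic neurons (DNs) were counted when they overlapped the gene body or 1 kb on either side by at least 1 bp.

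The peaks came from snATAC-seq, in which a transposase inserts adaptors into open chromatin of single nuclei, of the midbrain ventral tegmental area (VTA) of male C57Bl/6Nl mice. Both libraries, one from mice aged 7 weeks and one from mice aged 9 weeks, carried no treatment or transgene in the labels, and nuclei in the DN cluster were pooled by the authors into 1 list of 55326 peaks, each 500 bp wide, on 20 chromosomes in mm10 coordinates. The list gives no height, score or count for a peak, so the depth of each library cannot be read from it. The paper reports the number of DN nuclei from each library and the total of DN fragments, which were not used here. Values have no error between replicates and no test was run. The 1 bulk ATAC-seq sample of mES cells was not analysed here.

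The labelled cell type was checked against marker genes. All 8 DN markers had a peak, with 10 peaks at Th, the rate-limiting enzyme of dopamine synthesis, and 3 at Slc6a3, the dopamine transporter. The exact binomial interval of this share is 63.1 to 100%, which includes the 65.5% of all protein-coding genes with a peak by the same rule. Gene length was not allowed for, and the DN markers ran from 4093 bp (Foxa2) to 84044 bp (Ddc). Of 6 markers of other cell types, 3 had a peak in the gene body or 1 kb either side. These were Aldh1l1 of astrocytes with 6 peaks, Cx3cr1 of microglia with 9 and C1qa of microglia with 1, whereas the oligodendrocyte markers Sox10 and Olig2 and the astrocyte marker Aqp4 had 0. A peak lay over the annotated start of 5 of the 8 DN markers and of 0 of the 6 others, against 43.7% of all protein-coding genes. The part of other cells in the peaks at histone genes was not tested.

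Clustered histone genes supply the histones that package newly copied DNA. Most are short, lack introns, and make mRNAs that end in a stem-loop in place of a poly(A) tail, and their transcription and the stability of their mRNAs are coupled to S phase, whereas adult DNs have left the cell cycle. H2A and H2B genes often lie head to head and share the DNA between their starts, and several members make polyadenylated or testis-specific transcripts instead.

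To show what the promoters of members with and without a peak look like, 8 of them are printed over the 250 bases before the RefSeq start (GRCm38.p6, the assembly of mm10), 5′ to 3′ on the strand of the gene. Capitals mark 4 motifs of histone promoters, searched on both strands. The TATA box, a core element that places the start, was searched as TATAAA, which reads TTTATA on the opposite strand. The element bound by the factor NF-Y was searched as CCAAT, or ATTGG when reversed. The octamer, bound by the factor POU2F1, was searched as ATTTGCAT, or ATGCAAAT when reversed. The H1 box, named for linker histone promoters, was searched as AAACACA, or TGTGTTT when reversed. Matches of different motifs overlapped in none of the member promoters. The first pair are H2B genes that share the DNA before their start with an H2A gene, the former under a peak and the latter inside a stretch without peaks.
Hist1h2bk (chr13:22035571-22035820, plus strand): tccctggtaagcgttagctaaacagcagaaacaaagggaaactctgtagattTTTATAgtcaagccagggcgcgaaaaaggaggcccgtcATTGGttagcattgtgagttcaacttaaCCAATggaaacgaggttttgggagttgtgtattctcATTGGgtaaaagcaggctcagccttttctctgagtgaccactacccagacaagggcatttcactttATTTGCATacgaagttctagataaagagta
Hist1h2bn (chr13:21753826-21754075, plus strand): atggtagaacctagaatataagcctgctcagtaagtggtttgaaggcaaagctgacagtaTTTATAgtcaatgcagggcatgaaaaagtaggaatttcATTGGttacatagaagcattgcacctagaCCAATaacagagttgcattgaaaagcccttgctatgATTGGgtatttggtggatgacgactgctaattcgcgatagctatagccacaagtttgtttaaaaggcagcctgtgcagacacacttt
The next pair are H4 genes for the same protein, the former under a peak and the latter not.
Hist1h4i (chr13:22041363-22041612, minus strand): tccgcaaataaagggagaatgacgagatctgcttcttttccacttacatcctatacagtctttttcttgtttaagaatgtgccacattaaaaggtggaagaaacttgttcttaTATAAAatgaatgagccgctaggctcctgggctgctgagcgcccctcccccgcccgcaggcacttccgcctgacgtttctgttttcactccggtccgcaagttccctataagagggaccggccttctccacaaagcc
Hist1h4n (chr13:21832198-21832447, minus strand): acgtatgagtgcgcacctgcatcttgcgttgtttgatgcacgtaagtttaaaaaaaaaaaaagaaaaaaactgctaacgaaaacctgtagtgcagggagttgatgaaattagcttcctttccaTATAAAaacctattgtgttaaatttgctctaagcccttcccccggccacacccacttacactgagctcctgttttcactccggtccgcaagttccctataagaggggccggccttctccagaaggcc
The next pair are linker histone genes, of which Hist1h1c was under a peak and Hist1h1e was not.
Hist1h1c (chr13:23738557-23738806, plus strand): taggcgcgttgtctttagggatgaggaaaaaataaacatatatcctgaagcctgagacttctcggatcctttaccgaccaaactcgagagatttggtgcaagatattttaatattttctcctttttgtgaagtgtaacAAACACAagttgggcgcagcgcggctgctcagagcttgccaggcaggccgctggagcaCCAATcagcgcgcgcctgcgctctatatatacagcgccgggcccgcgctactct
Hist1h1e (chr13:23622559-23622808, minus strand): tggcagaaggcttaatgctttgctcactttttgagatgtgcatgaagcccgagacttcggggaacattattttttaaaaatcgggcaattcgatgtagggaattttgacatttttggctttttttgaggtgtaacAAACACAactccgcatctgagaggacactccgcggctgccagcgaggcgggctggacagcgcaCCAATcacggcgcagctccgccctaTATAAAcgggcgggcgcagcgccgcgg
The last are H2B genes from the extremes of the data, with 4 peaks at Hist3h2ba and 0 at the testis-specific Hist1h2ba.
Hist3h2ba (chr11:58948661-58948910, plus strand): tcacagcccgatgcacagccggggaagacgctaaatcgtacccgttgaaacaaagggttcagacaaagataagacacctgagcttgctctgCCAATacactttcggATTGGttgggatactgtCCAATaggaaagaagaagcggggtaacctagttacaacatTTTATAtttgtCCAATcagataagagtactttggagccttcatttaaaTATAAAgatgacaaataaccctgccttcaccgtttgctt
Hist1h2ba (chr13:23934157-23934406, minus strand): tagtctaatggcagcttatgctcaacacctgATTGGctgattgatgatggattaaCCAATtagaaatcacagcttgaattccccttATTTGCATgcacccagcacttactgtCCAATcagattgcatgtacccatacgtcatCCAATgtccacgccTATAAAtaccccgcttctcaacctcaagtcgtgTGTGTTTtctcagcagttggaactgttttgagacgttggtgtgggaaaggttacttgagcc

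Of the 67 members, 41 (61.2%, with a 95% exact binomial interval of 48.5 to 72.9%) had an accessible peak in DNs. The same rule found a peak at 65.5% of all protein-coding genes, which are mostly far longer. Intervals cover counting error only, and neighbouring members share peaks, so they are too narrow. A gene without a peak is one where no peak was called, not one shown to be closed. Most protein-coding genes have several exons, whereas 48 members are at most 1 kb long and have 1 exon, and 30 of these 48 (62.5%) had a peak. Among the other 509 protein-coding genes of 1 exon and at most 1 kb, 9.63% had a peak, and 12.6% of 389 when Olfr and Vmn receptor genes were left out.

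A peak covered the annotated start of 38 members (56.7%, interval 44.0 to 68.8%), against 43.7% of all protein-coding genes. The remaining 3 members with a peak were Hist1h1d, Hist1h2be and Hist1h3f, whose annotated start lies well before the start codon, and each had a peak centred within 250 bp of that codon. The peak nearest to the start codon had its centre upstream of that codon in all 41 members with a peak, at a median of -103 bp and between -221 and -34 bp.

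**Figure D1:**
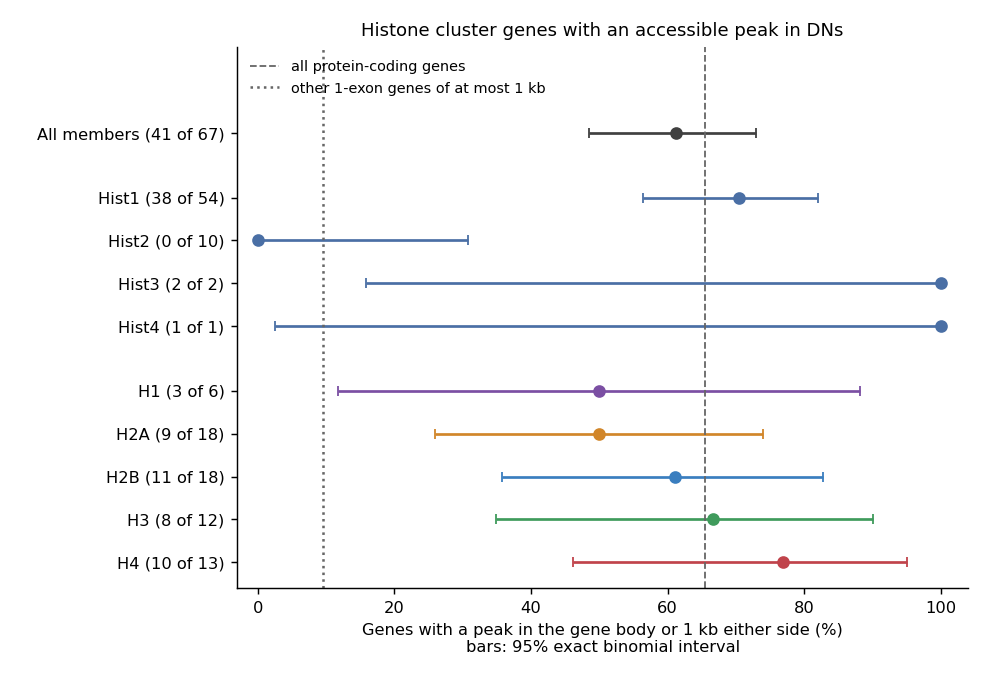
Share of histone cluster genes with an accessible peak in DNs, in percent, for all members, by cluster and by histone type, with counts in brackets. Points are shares, bars are 95% exact binomial intervals, and the dashed and dotted lines mark all protein-coding genes (65.5%) and other 1-exon genes of at most 1 kb (9.63%). Hist2 sits at 0 of 10 and Hist1 at 38 of 54.

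Peaks were found in Hist1, Hist3 and Hist4 and not in Hist2. In Hist1, 38 of 54 genes (70.4%, interval 56.4 to 82.0%) had a peak. In Hist2, 0 of 10 had one, which allows a share of up to 30.8%. Both Hist3 genes and Hist4h4 had peaks. By type, a peak was found at 10 of 13 H4 genes (76.9%, interval 46.2 to 95%), 8 of 12 H3 genes (66.7%, 34.9 to 90.1%), 11 of 18 H2B genes (61.1%, 35.7 to 82.7%), 9 of 18 H2A genes (50.0%, 26.0 to 74.0%) and 3 of 6 H1 genes (50.0%, 11.8 to 88.2%). The intervals of the 5 types overlap, and the types are spread unevenly over the clusters. Within Hist1 alone, the counts were 9 of 11 for H4, 8 of 9 for H3, 10 of 15 for H2B, 8 of 13 for H2A and 3 of 6 for H1.

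Members held between 0 and 4 peaks. A single peak was found at 19 members, 2 peaks at 16, 3 at 4 and 4 at 2, and in all 19 members with 1 peak it covered the annotated start. These counts came from 51 different peaks, of which 32 were at 1 member, 18 at 2 and 1 at 3. The peak shared by 3 members, at chr13:23762189-23762688, touched the windows of the neighbours Hist1h4a, Hist1h3a and Hist1h1a. Of the 51 peaks, 49 had no start of a gene outside the histone clusters within 1 kb, and the other 2 lay near the start of Trim17, next to Hist3h2a.

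**Figure D2:**
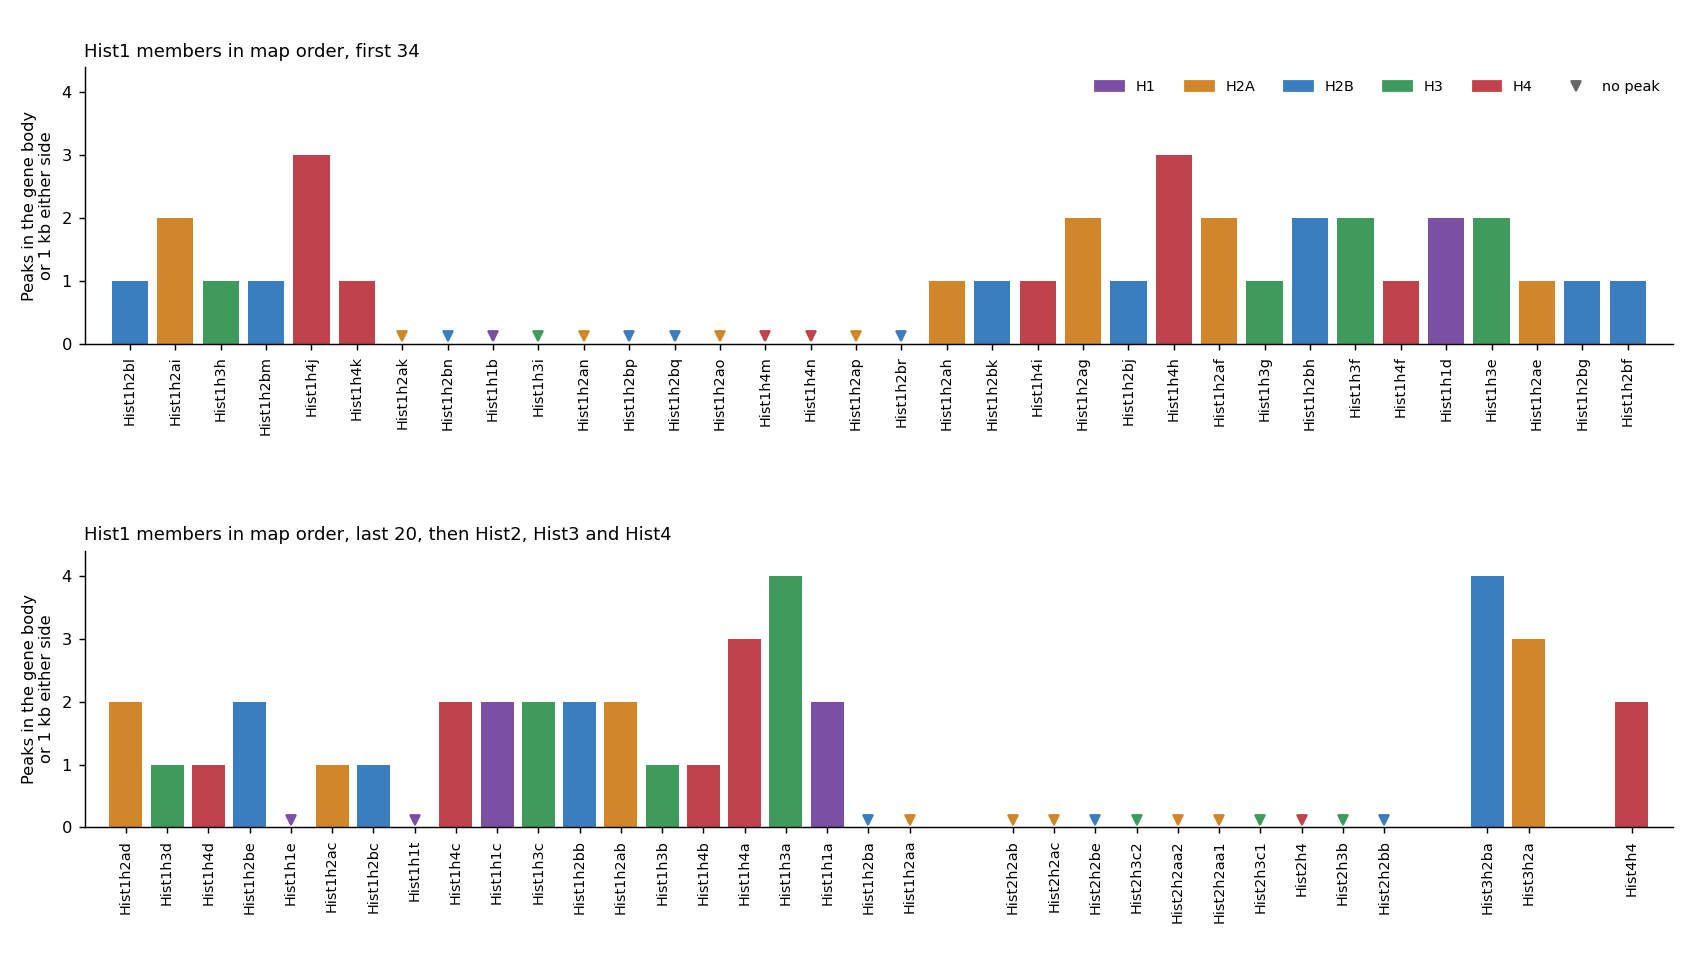
Number of accessible peaks in the gene body or 1 kb either side of each of the 67 members, in map order within each cluster and coloured by histone type. Triangles mark the 26 members with no peak, which form a run of 12 in Hist1 and include all 10 Hist2 genes. Hist3h2ba and Hist1h3a reach 4 peaks.

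Linker histones bind the nucleosome at the entry and exit of its DNA, and all 6 H1 genes lie in Hist1. Hist1h1a (chr13:23763666-23764406) had 2 peaks, with centres at -1227 and -31 bp from its start. Hist1h1c (chr13:23738808-23740367) had 2 peaks, centred at -23 and 1002 bp. Hist1h1d (chr13:23553262-23560686) had 2 peaks, centred at -103 and 1105 bp from its start codon. No peak was called at Hist1h1b (chr13:21779883-21780625), Hist1h1e (chr13:23620629-23622558) or the testis-specific Hist1h1t (chr13:23695814-23696725). Hist1h1t lay just outside the rule, with the nearest peak 1028 bp from the gene, whereas the nearest peak was 34378 bp away for Hist1h1e and 29069 bp away for Hist1h1b. The H1 proteins differ more among themselves than those of any other type, with a median pairwise identity of 69.5% over 209 to 223 residues, so each of these genes makes its own variant.

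Outside the H1 genes, the 10 Hist1 members with the most peaks were led by Hist1h3a (chr13:23761853-23762386), an H3 gene, with 4 peaks centred at -1249, -53, 1018 and 1526 bp from its start. All 4 were also at a neighbouring member, and those at -1249 and 1018 bp cover the starts of Hist1h1a and Hist1h4a. Hist1h4h, Hist1h4j and Hist1h4a, all H4 genes, had 3 peaks each. In Hist1h4h (chr13:23531050-23531519) they were centred at -624, -34 and 698 bp, and in Hist1h4j (chr13:21735064-21735837) at -792, -33 and 479 bp. Both genes therefore had 1 peak over the start and a peak on each side of it. In Hist1h4a (chr13:23760692-23761230), the 3 peaks were centred at -1209, -138 and 370 bp, and the first of them covers the start of Hist1h3a. Each of the other 6 had 2 peaks. Hist1h4c (chr13:23697635-23698454) had centres at -86 and 451 bp, Hist1h2ab (chr13:23751126-23751598) at -116 and 1176 bp, Hist1h2ad (chr13:23574381-23574952) at -39 and 1359 bp, and Hist1h2ai (chr13:21716422-21716814) at -126 and 1189 bp. In the 3 H2A genes, the second peak is also at the neighbouring H3 gene, over whose start it lies. Hist1h2be (chr13:23583670-23621124), whose gene record spans 37455 bp, had no peak over its distant annotated start and 2 peaks centred at -46 and 882 bp from its start codon. Hist1h3f (chr13:23544052-23545312) had peaks centred at -1009 and -74 bp from its start codon, and the former covers the start of Hist1h2bh.

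Hist3 was the densest cluster, with 8 peaks in 9.91 kb (counted with 1 kb on either side). Hist3h2ba (chr11:58948920-58949533), an H2B gene, had 4 peaks centred at -693, -102, 714 and 1329 bp from its start. Hist3h2a (chr11:58954685-58956830), an H2A gene, had 3 peaks centred at -775, -112 and 2909 bp. The peaks at -775 and -112 bp are those near the start of Trim17, and the histone genes and Trim17 cannot be told apart as the owners of these peaks. Hist4h4 (chr6:136801553-136804415), the only member on chromosome 6, had 2 peaks centred at -52 and 535 bp.

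The 26 members without a peak were not scattered. A contiguous run of 12 Hist1 genes, from Hist1h2ak to Hist1h2br (chr13:21753435-21837530), had none, and it holds 4 H2A, 4 H2B, 2 H4, 1 H3 and 1 H1 gene. The run lay in a gap of 97.0 kb between neighbouring peaks (chr13:21750815-21847802), which ended beside Hist1h4k, a gene with a peak over its start. All 10 Hist2 genes (chr3:96219865-96270132) lay in a gap of 219 kb (chr3:96196096-96414621) that also holds Fcgr1, an Fc receptor gene. In map order these were Hist2h2ab, Hist2h2ac, Hist2h2be, Hist2h3c2, Hist2h2aa2, Hist2h2aa1, Hist2h3c1, Hist2h4, Hist2h3b and Hist2h2bb, and the nearest peak was between 23.8 and 73.7 kb away. The other 4 members without a peak were Hist1h1e, in a gap of 97.5 kb, Hist1h1t, and the testis-specific head-to-head pair Hist1h2ba (chr13:23933773-23934156) and Hist1h2aa (chr13:23934462-23934851), in a gap of 205 kb with Slc17a1 to Slc17a4 and Scgn. All 3 testis-specific members, Hist1h1t, Hist1h2ba and Hist1h2aa, were therefore without a peak. With so few genes the interval of the share with a peak is 0 to 70.8%, which includes the 65.5% of all protein-coding genes. Hist1h2ba and Hist1h2aa are 1 pair with overlapping windows, and Hist1h1t had a peak 1028 bp away.

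Outside the run of 12 and Hist2, 41 of 45 members (91.1%) had a peak. This division was made after the values were seen, and the share is a description of where the gaps lie. Gaps as long as these are common in the list, since 10.6% of the 55306 gaps between neighbouring peaks were at least as long as the gap of 97.0 kb and 3.76% as long as that of 219 kb. Few of them are as rich in genes. Of the 11343 gaps of 50 kb or more, 54 held at least as many protein-coding genes other than Olfr and Vmn genes as the Hist1 gap, which held 12, and 59 at least as many as the Hist2 gap, which held 11. Members make up 12 of the 12 and 10 of the 11 genes. The gaps were picked for members without a peak, so these ranks follow in part from that choice. In Hist1, the block of 330 kb that contains the run (chr13:21714763-22044676) had 75.8 peaks per Mb in all and a peak at 11 of 23 members. The other block, of 406 kb (chr13:23530050-23935851), had 86.2 peaks per Mb and a peak at 27 of 31 members.

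Near-identical copies can lose reads when reads that map to several places are discarded, so the uniqueness of sequence is given beside these counts. It was measured as the share of 50-mers in the gene body and 1 kb either side that occur once in the genome on both strands. The median was 86.6% (56.6 to 100%) in the 41 members with a peak, 43.1% (0 to 100%) in the run of 12, 71.8% (35.9 to 99.4%) in Hist2 and between 94% and 100% in the other 4 members without a peak. In the run of 12, the 6 genes from Hist1h2bq to Hist1h2br had between 0 and 11.3% of unique 50-mers, whereas the 6 from Hist1h2ak to Hist1h2bp had between 74.9 and 100%, and neither set had a peak. Hist1h1b, with 100% unique, Hist2h4, with 99.4%, and Hist2h2be, with 95.6%, had no peak either.

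**Figure D3:**
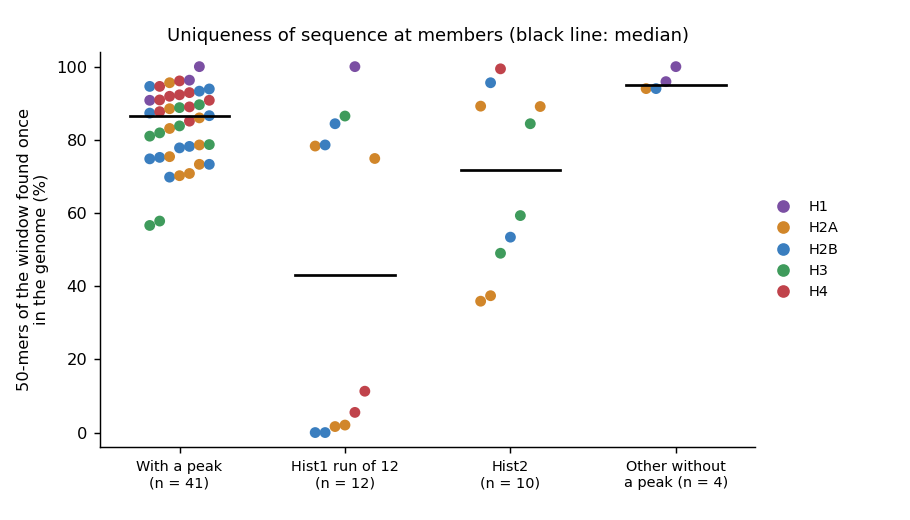
Percentage of 50-mers in the window of each member that occur once in the genome, for members with a peak (n = 41), the Hist1 run of 12, Hist2 (n = 10) and the other members without a peak (n = 4), coloured by histone type. Black lines are medians. Points of the run of 12 fall into a group near 0% and a group from 74.9 to 100%, and members with a peak lie at 56.6% or more.

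At the start itself, 0 of the 10 members with under 50% unique 50-mers within 250 bp had a peak over the start. Among all protein-coding genes with such starts, 1.03% of 1069 did. Of the 40 members with 50 to 90%, 33 (82.5%) had a start peak, against 15.1% of 1146 genes overall. Of the 17 members with at least 90%, 5 (29.4%) had one, against 47.8% of 19540 genes. Of these 17, 8 had a peak in the gene body or 1 kb either side, and the 3 without a start peak among them were Hist1h3f, Hist1h1d and Hist1h2be, whose peak is at the start codon. Restricting the count to members with at least 90% unique 50-mers in the window left 14 of 21 (66.7%, interval 43.0 to 85.4%) with a peak, against 27 of 46 (58.7%, 43.2 to 73.0%) of the less unique members. At a threshold of 75%, the counts were 33 of 47 (70.2%, 55.1 to 82.7%) and 8 of 20 (40.0%, 19.1 to 63.9%). The part of read placement in the absence of peaks at the least unique members was not tested.

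In 13 places, 2 members lay head to head with their starts at most 1 kb apart, 12 of them in Hist1 and 1 in Hist2. All but 1 joined an H2A to an H2B gene, with 176 to 306 bp between the starts. Of these 12 pairs, 6 had 1 peak that spanned both starts and 6 had no peak at either gene, so no pair had 1 gene with a peak and the other without. The pairs with a spanning peak were Hist1h2bl and Hist1h2ai, Hist1h2ah and Hist1h2bk, Hist1h2ag and Hist1h2bj, Hist1h2ae and Hist1h2bg, Hist1h2bf and Hist1h2ad, and Hist1h2ac and Hist1h2bc. With starts this close, the windows of the 2 genes overlap, so a peak between the starts is counted at both. Agreement within a pair was therefore largely set by the counting rule. A peak of 500 bp also covers both starts by its width, and the share of each gene cannot be told apart. The last pair, Hist1h2bh and Hist1h3f, had 660 bp between the starts and 2 peaks, both in the windows of both genes. Of the 26 genes in pairs, 14 (53.8%, interval 33.4 to 73.4%) had a peak, and of the 41 others 27 (65.9%, 49.4 to 79.9%).

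The centre of the start peak lay upstream of the annotated start in 37 of 38 members, at a median of -67.5 bp (-188 to 35 bp). In all 9516 protein-coding genes with a start peak the median was -29.0 bp, and the centre was upstream in 68.2%. In the 13 members that belong to pairs the median was -126 bp, as the centre fell between the starts, and in the 25 others it was -52.0 bp. The exception was Hist1h3b, with its centre at 35 bp.

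**Figure D4:**
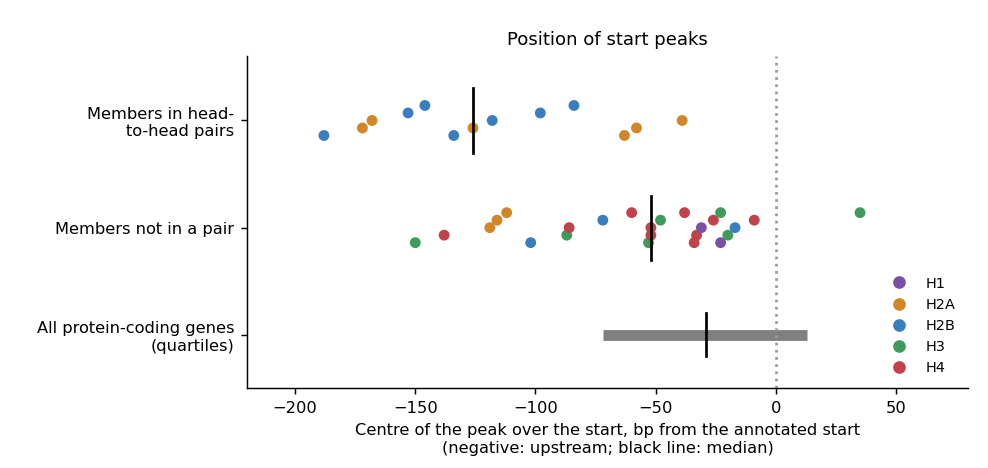
Distance in bp from the annotated start to the centre of the peak that covers it, for 13 members in head-to-head pairs and 25 others, coloured by histone type, with upstream distances negative. Black lines are medians (-126, -52.0 and, for all protein-coding genes, -29.0 bp) and the grey bar spans the quartiles of all protein-coding genes.

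Of the 51 peaks, 32 covered an annotated start, 3 covered a start codon without an annotated start, 9 lay in or across a gene body without either, 5 before a gene and 2 after one. The GC content of the 32 peaks over a start had a median of 51.4%, against 63.2% in all 8801 peaks over the start of a protein-coding gene. Their median ratio of observed to expected CpG dinucleotides was 0.84, against 0.81. Peaks at histone starts were thus about as rich in CpG for their base composition as other start peaks, at a lower GC content. In the 9 peaks in gene bodies, the median CpG ratio was 0.86, in the 5 before a gene 0.61 and in the 2 after a gene 0.33, against 0.27 in all 46525 peaks away from starts.

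RefSeq promoters, here 250 bases before to 50 after the start, were matched for 62 members, and 1 of these has 2, which gave 63 promoters. Hist1h3f, Hist1h2bc, Hist1h3a, Hist2h2be and Hist2h4 had none. A peak overlapped 38 of the 63 (60.3%), against 50.5% of 21044 promoters of protein-coding genes. The median GC content was 45.3%, against 56.7% in all. Of the 45 member promoters with a CpG ratio of at least 0.6, 26 (57.8%) had a peak, against 83.3% of all promoters of that kind. Of the 19 such member promoters without a peak, 10 lay in the Hist1 run of 12 and 7 in Hist2. Of the 18 member promoters with a lower ratio, 12 (66.7%) had a peak, against 20.1%.

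TATAAA was present in 55.6% of member promoters, against 12.7% of all, and CCAAT in 85.7%, against 38.5%. The 41 matches of TATAAA fell on 35 different sites, since 6 sites lay in the promoters of both genes of a head-to-head pair. At 12 of the 35 sites the letters were on the sense strand of a gene and started between 40 and 20 bp upstream of it. Among the printed promoters, the match is on the antisense strand at -198 bp in Hist1h2bk and at -190 bp in Hist1h2bn, and both sites also lie in the promoter of the paired H2A gene. In Hist1h4i it starts at -137 bp and in Hist1h4n at -127 bp. Sense matches start at -27 bp in Hist1h1e, at -39 bp in Hist3h2ba and at -94 bp in Hist1h2ba. Hist3h2ba also has an antisense match at -87 bp, and Hist1h1c has no match. Of the 35 member promoters with TATAAA, 21 (60.0%) had a peak, against 22.0% of all promoters with these letters. CCAAT was in every promoter of H1, H2A, H2B and H3 genes, with a median of 3 matches per gene in H2A and in H2B, some of them shared by paired genes, and in 3 of 12 (25.0%) H4 promoters. The printed promoters show this, with several ATTGG and CCAAT in Hist1h2bk and Hist1h2bn and none in Hist1h4i or Hist1h4n.

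The octamer was in 22.2% of member promoters, against 1.68% of all, and in none of the H1, H3 and H4 promoters. It was present in 7 H2B genes, always on the sense strand, and in 7 H2A genes, always on the antisense strand, and 5 of the 7 had a peak in either type. Of all 353 promoters with the octamer, 38.0% had a peak. The 14 matches in members were 11 different sites, of which 3 are shared by the pairs Hist1h2ah and Hist1h2bk, Hist1h2ae and Hist1h2bg, and Hist1h2aa and Hist1h2ba, so the counts of the types are not separate. None of the 12 promoters of the Hist1 run without peaks held the octamer, and some of them belong to H1, H3 and H4 genes, types without it. Hist1h2bk, under a peak, has it near the start, and Hist1h2bn, in the run, does not. In H2B, 5 of 10 promoters with a peak and 2 of 7 without a peak held the octamer. In H2A, the counts were 5 of 9 and 2 of 9. The H1 box was in 5 of 6 H1 promoters, starting between -122 and -112 bp, and in 6.19% of all promoters. The 5 were Hist1h1b, Hist1h1c, Hist1h1d, Hist1h1e and Hist1h1t, of which 2 had a peak over the promoter, against 30.2% of all 1303 promoters with the H1 box. Hist1h1c and Hist1h1e share an unbroken run of 15 bases around it, gtgtaacaaacacaa. A match of letters is a description and not a bound site.

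**Figure D5:**
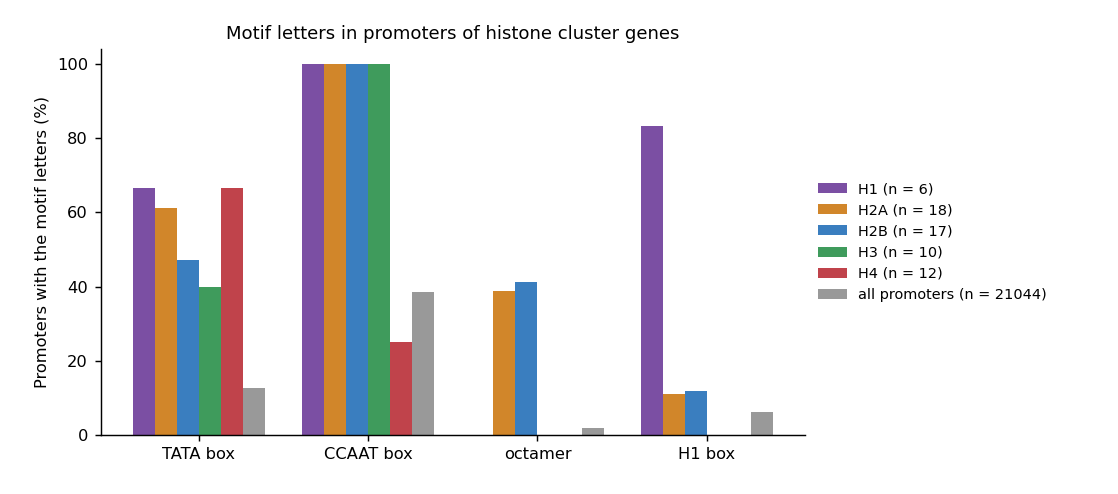
Percentage of RefSeq promoters that hold the TATA box, CCAAT box, octamer or H1 box letters on either strand, for members by histone type and for all 21044 promoters of protein-coding genes (grey). The octamer bars are present in H2A and H2B, the H1 box bar is highest in H1 (83.3%), and the CCAAT bar of H4 (25.0%) is below that of all promoters (38.5%).

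No motif was limited to member promoters with a peak. TATAAA was in 55.3% of the 38 member promoters with a peak and in 56.0% of the 25 without. CCAAT was in 81.6% and 92.0%, the octamer in 26.3% and 16.0%, and the H1 box in 10.5% and 20.0%. The longest run that Hist1h4i and Hist1h4n share, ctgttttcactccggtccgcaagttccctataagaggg, is 38 bases long and starts at -59 bp in both. It was in 3 of the 12 H4 promoters, 1 of them with a peak. The other 2 were Hist1h4m and Hist1h4n, with 10.9% and 8.70% of unique 50-mers within 250 bp of the start.

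Members of 1 type often make the same protein, so the presence of a peak was compared among genes that do not differ in their product. The 67 genes encode 29 different proteins. All 13 H4 genes encode 1 protein of 103 residues, and 10 of them had a peak, and 3, Hist1h4m, Hist1h4n and Hist2h4, did not. The 12 H3 genes encode 2 proteins that are 99.3% identical, from 8 genes, 5 of them with a peak, and from 4 genes, 3 of them with a peak. In H2A, 1 protein is encoded by 9 genes, of which 6 had a peak, and in H2B the most common protein is encoded by 6 genes, of which 3 had a peak. Of the 7 proteins made by 2 or more genes, 5 came both from genes with a peak and from genes without. The Hist2 H3 genes Hist2h3c2, Hist2h3c1 and Hist2h3b encode the same H3 protein as 5 Hist1 genes that all had a peak. In the 5 proteins from both kinds of gene, several genes without a peak had few unique 50-mers within 250 bp of the start. The share was 10.9% in Hist1h4m, Hist2h3c2 and Hist2h3c1, 8.70% in Hist1h4n and 0% in Hist1h2ao, Hist1h2ap, Hist1h2bq and Hist1h2br. In Hist1h2an, Hist1h3i, Hist1h2bn, Hist2h3b and Hist2h4 it was between 54.3 and 95.7%. The part of read placement in these contrasts was not tested.

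Histone genes outside the clusters include those for replacement variants, which are made throughout the cell cycle and in cells that no longer divide. Of 16 such genes, 11 (68.8%, interval 41.3 to 89.0%) had a peak, close to the 65.5% of all protein-coding genes, against which the lists that follow also stand. They included H3f3a and H3f3b, which encode H3.3, with 2 peaks each, H2afz with 4, H2afy with 6 and the linker histone gene H1f0 with 2. The 5 without a peak were H2afx, the variant phosphorylated at DNA breaks, and the germline genes H1fnt, H2afb1, H2al2a and H2bfm, whereas the oocyte linker histone gene H1foo had 1 peak. Of 13 genes for the transcription of histone genes and the 3′ end processing of their mRNAs, 12 had a peak, with 2 peaks at Npat, the coactivator of clustered histone genes, and 2 at Slbp, the stem-loop binding protein. The exception was Hinfp, a regulator of H4 genes. All 14 genes for histone chaperones and deposition had a peak over the start, against 43.7% of all protein-coding genes, among them Chaf1a and Chaf1b, which load histones at replication, and Hira, which loads H3.3. Of 18 S phase and division genes, 16 had a peak, with 1 at Mki67 and 2 at Pcna and none at Rrm2 and Tyms. The differences between these lists were not tested, and accessibility here does not tell whether a gene is transcribed.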

How the data were processed

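Peaks were those of the DN cluster of 2 snATAC-seq libraries of the VTA, pooled by the authors in 1 deposited list of chromosome, start and end. According to the methods of the study, reads were mapped to mm10 with cellranger-atac, and nuclei were filtered, cleared of doublets and clustered with ArchR, which also built 2 pseudobulk replicates and kept peaks found reproducibly after merging overlaps step by step. The methods also describe a filter on the share of nuclei with a peak and do not state whether the list had passed it. Starts were read as counted from 0 and are printed counted from 1. Genes came from GENCODE M21, and promoters and the genome from RefSeq GRCm38.p6.

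A peak was counted at a gene when it overlapped the gene body or 1 kb either side by at least 1 bp. Shares have 95% exact binomial (Clopper-Pearson) intervals. Because libraries are pooled, there are no replicates and no test was run. Head-to-head pairs had starts at most 1000 bp apart. Uniqueness was measured with 50-mers sampled every 10 bp at members, every 50 bp at the starts of all genes and every 100 bp across gaps, counted as exact matches on both strands. Proteins were translated from annotated coding sequences. Genes named with values were all members of Hist2, Hist3 and Hist4, all H1 genes, the testis-specific members and the 10 other Hist1 members with the most peaks (ties by covered bp, then position). Other members named were chosen after their values were seen. The members and gene lists were chosen with earlier results of these data known. Overlap counting was tested on simulated data and gave the planted count in 200 of 200 cases, as did counting of 50-mers in 9 of 9. Python 3.11.15 was used with numpy 2.4.6, pandas 2.3.3, scipy 1.17.1, numba 0.67.0, biopython 1.88 and matplotlib 3.10.9.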

Additional observations from a re-analysis of the deposited data

How the results depend on the processing

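The share of members with a peak stayed within its interval of 48.5 to 72.9% under each of 7 other ways of counting, from 52.2% with each peak counted only at the member with the nearest start to 66.7% in members with at least 90% unique 50-mers. It was 91.1% outside Hist2 and the run of 12, a subset chosen after the data were seen and picked by the absence of peaks. The share with a peak over the start (56.7%), the share in Hist1 (70.4%) and the share among unique members (66.7%) also stayed within their intervals under every other count tried. The number of different peaks was 51, and 44 with the gene body alone, 58 with 5 kb either side and 51 with starts read as counted from 1. With 5 kb either side, 2 of the 12 genes of the run and 0 of the 10 Hist2 genes had a peak. Hist1h1t, with the nearest peak 1028 bp away, also had one at that setting. No paired analysis was possible because both libraries are pooled in 1 list, and neither library could be left out. The list holds no counts, so weak accessibility below the calling limit could not be measured.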

Other observations

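Histone pseudogenes of the clusters were counted by the same rule. Hist3h2bb-ps, between the Hist3 genes, had 2 peaks and Hist1h2aj had 1, and each of these peaks was also at a member. Hist1h2al, which lies outside the Hist1 blocks on chromosome 13, had 0. Of the 60 peaks within both Hist1 blocks, 42 were at members. In the block of 330 kb these were 10 of 25, and in that of 406 kb they were 32 of 35.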
